A study of Mus musculus with 90 samples.

Results

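The transcripts of 8 genes of cholesterol synthesis, Hmgcs1, Idi1, Fdps, Fdft1, Sqle, Lss, Cyp51 and Insig1, were followed through 15 tissues of naturally cycling female mice. The genes were chosen by name, as the rows of the expression table that carry the Entrez identifier of each mouse gene. They are 8 of the 20414 genes listed. The identifiers were 208715 for Hmgcs1, 319554 for Idi1, 110196 for Fdps, 14137 for Fdft1, 20775 for Sqle, 16987 for Lss, 13121 for Cyp51 and 231070 for Insig1.

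Cells build cholesterol from acetyl-CoA through mevalonate, isoprenoid diphosphates, squalene and lanosterol. Hmgcs1 makes HMG-CoA, Idi1 interconverts the isoprenoid building units, Fdps joins them to farnesyl diphosphate, Fdft1 condenses farnesyl diphosphate to squalene, Sqle oxidizes squalene, Lss closes the ring system to lanosterol, and Cyp51 removes a methyl group from lanosterol. Insig1 is no enzyme of the route but a membrane protein that retains the SCAP-SREBP complex in the endoplasmic reticulum when sterols are plentiful, while at low sterol SREBP-2 reaches the nucleus and switches on the whole route, Insig1 included. The liver secretes cholesterol and converts it to bile acids, the ovary uses it as the precursor of steroid hormones, and the intestine both absorbs and makes it.

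The SREBP proteins bind sterol regulatory elements near the start of these genes, often beside sites for NF-Y and Sp1. The 250 bases before the annotated RefSeq start (GRCm38.p6) were at hand for 5 of the 8 genes (Hmgcs1, Idi1, Lss, Cyp51 and Insig1). 3 of them are shown. Hmgcs1 was the one gene of the 8 past an F-test for a phase difference that varied between tissues, which did not pass in every check. Idi1 and Lss were genes of the group that moved together in the duodenum. Each is written 5′ to 3′ on the strand of the gene, and capitals mark every match, on either strand, to TCACNCCAC (a sterol regulatory element motif) or CCAAT (the NF-Y motif, read as ATTGG on the other strand).
Hmgcs1, chr13:119690101-119690350, plus strand: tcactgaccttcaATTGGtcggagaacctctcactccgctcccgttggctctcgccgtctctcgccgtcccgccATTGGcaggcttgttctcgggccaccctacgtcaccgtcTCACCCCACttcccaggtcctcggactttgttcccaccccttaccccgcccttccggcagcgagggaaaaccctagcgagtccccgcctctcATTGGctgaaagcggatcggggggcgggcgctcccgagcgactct
Idi1, chr13:8885356-8885605, plus strand: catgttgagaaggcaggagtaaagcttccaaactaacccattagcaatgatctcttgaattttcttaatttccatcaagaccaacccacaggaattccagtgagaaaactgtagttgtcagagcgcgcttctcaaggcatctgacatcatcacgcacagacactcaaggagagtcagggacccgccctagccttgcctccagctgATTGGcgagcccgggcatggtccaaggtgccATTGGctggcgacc
Lss, chr10:76531355-76531604, plus strand: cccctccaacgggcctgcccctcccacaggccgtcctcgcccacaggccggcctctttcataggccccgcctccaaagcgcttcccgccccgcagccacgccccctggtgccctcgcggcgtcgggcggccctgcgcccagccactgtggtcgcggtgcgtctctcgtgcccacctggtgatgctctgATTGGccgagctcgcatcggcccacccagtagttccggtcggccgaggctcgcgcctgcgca

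The sterol motif was found in Hmgcs1, where its match TCACCCCAC lay at bases -137 to -129 from the start, and in none of the other 4 windows, and it occurred in 1.05% of the 32851 promoter windows of the same length in the table. CCAAT occurred in all 5 windows, 3 times in Hmgcs1, 2 times in Idi1 and 1 time each in Lss, Cyp51 and Insig1, against 33.8% of all windows. GGGCGG, a core of Sp1 sites searched in the same way and not capitalized, also occurred in all 5, against 32.7% of all windows. No match overlapped a match to another of the 3 motifs. A match is a stretch of letters and not a measured binding site.

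All mice were females, C57BL/6 with an age of 10 weeks on the labels (C57BL/6J and 8 weeks in the methods of the study), free of any named allele or treatment, kept under alternating light and dark with free access to water, and sorted into estrus or diestrus by stained vaginal smears. RNA was sequenced from 3 libraries of each phase for ovary, liver, duodenum, stomach, kidney, vein, aorta, white adipose tissue (WAT), brown adipose tissue (BAT), cerebrum, hypothalamus, uterus, spleen, heart and skeletal muscle, which gave 30 groups and 90 libraries. Per the methods, the 3 libraries of a group came from 3 mice, and the 15 tissues of a phase came from the same 3, while the labels do not tie a replicate number to a mouse. Libraries of different tissues therefore share mice, and the tests between tissues treat them as independent. The hour of collection was not given in the sources used here. Values were FPKM, fragment numbers corrected for transcript length and library size, which can be compared between genes because they are per length.

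The depth, estimated from the smallest steps between values of short genes, was about 8800000 to 17900000 reads in 89 libraries and about 76000 reads in BAT estrus replicate 3, where 12048 genes were listed at 0. The labelled tissues carried their markers: the 7 hepatocyte markers were all above a mean of 1 FPKM in liver, as were the 7 enterocyte markers in duodenum and the 7 granulosa, 7 luteal and 7 oocyte markers in ovary. 4 further libraries were left out in checks, chosen after the values were seen. Ovary estrus replicate 3 had a summed oviduct marker level of 1660 FPKM against 3.20 to 45.5 in the other ovary libraries. Duodenum estrus replicate 1 had a summed gastric epithelium level of 37500 against 0.94 to 24.0. Aorta estrus replicate 1 had a summed adipocyte level of 2450 against 11600 to 14500. In liver estrus replicate 1 the clock output gene Dbp was at 0.98 FPKM against 44.0 to 127 in the other liver libraries. These 4 and the shallow BAT library are called the 5 libraries that stand apart. Some tests of phase and of tissue against the others that rest on them are given with and without them. Those of heart, skeletal muscle, kidney and BAT against the other tissues are given with all libraries alone. The tests of neighbouring tissues were not repeated without these 5. The correlations of deviations within tissues left out the shallow BAT library alone. By a wider rule (a summed marker level over 100 FPKM and over 5 times the highest of the other libraries of the tissue, or under 0.25 of the lowest where that was over 300 FPKM) 7 more stood apart. Among them spleen estrus replicate 2 had pancreatic acinar markers at 4340 against 3.88 to 15.2, uterus estrus replicate 3 oviduct markers at 2840 against 59.6 to 186, WAT estrus replicate 1 smooth muscle markers at 3200 against 145 to 339 and heart estrus replicate 3 gastric markers at 171 against 0 to 0.27.

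Across tissues, the liver held the highest mean level of Hmgcs1, Idi1, Fdps and Sqle, while Fdft1 was highest in vein, Cyp51 in kidney, and Lss and Insig1 in WAT. The lowest means were in heart (Idi1, Fdps, Sqle, Lss), skeletal muscle (Hmgcs1, Cyp51, Insig1) or spleen (Fdft1). The ratio of the highest to the lowest tissue mean ran from 8.33 for Fdft1 to 63.9 for Sqle. The summed FPKM of the 8 genes was 691 ± 200 in liver, 461 ± 106 in ovary, 420 ± 137 in stomach, 222 ± 80.2 in duodenum and 52.2 ± 1.91 in heart (SD, n = 6 libraries a tissue).

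Hmgcs1, at the head of the route, ranged from 79.7 to 299.8 FPKM in liver (median 129.0), from 96.0 to 180.9 in ovary (median 128.8) and from 88.95 to 122.3 in kidney (median 108.2). The libraries of these 3 tissues overlapped. The duodenum had rank 10 of the 15 tissues at 23.0 to 64.5 FPKM (median 55.0), and skeletal muscle was last at 9.94 to 11.8 (median 11.3).

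Idi1 had much lower levels. It ranged from 9.16 to 25.6 FPKM in liver (median 16.3), from 3.44 to 8.86 in ovary (median 5.45) and from 1.2 to 10.3 in duodenum (median 5.60). The liver libraries all lay above those of stomach, the next tissue at a mean of 6.11 FPKM (two-sided exact permutation test on log2(FPKM + 1) over all splits of 12 libraries, adjusted p = 0.0162). The Idi1 row is uncertain in level, since the gene Gm38481 overlaps a processed pseudogene, Gm13502, whose GENCODE transcript was 100% identical to that of Idi1 over 684 bases. The FPKM of Gm38481 was 5.76 times that of Idi1 in the median library (10th to 90th percentile 3.53 to 8.54), and their log2 values had r = 0.86 over 90 libraries. How the counting divided reads between both rows cannot be told apart from these values.

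Fdps was the most abundant transcript of the 8 in liver, at 144.0 to 329.7 FPKM (median 212.7). Averaged over the liver libraries, it made up 33.7% of the summed FPKM of the 8 genes. It ranged from 108.2 to 199.5 in ovary (median 146.1) and from 16.04 to 92.7 in duodenum (median 71.0). The ranges of liver and ovary overlapped, and those of ovary and duodenum did not. Fdft1 ranged from 38.0 to 65.5 FPKM in liver (median 49.5), from 29.8 to 54.4 in ovary (median 41.8) and from 6.37 to 23.2 in duodenum (median 21.1), and its highest mean was in vein at 60 ± 13.7 (SD, n = 6). For Fdps (Gm3571, Gm5873, Gm8163) and Fdft1 (Gm6781) the annotation also holds processed pseudogenes with at least 95% identity over at least 300 bases, and no listed gene overlapped these. The same held for Gm35570 of Idi1 (97.7% over 681 bases). A further processed pseudogene of Fdps, Gm7979 (96.7% over 605 bases), overlaps the listed gene Adcy2. A GENCODE transcript of Ctsb was 100% identical to Fdft1 over 774 bases, and one of Gm43738, which overlaps the listed gene Rusc1, was identical to Fdps over 929, so these levels share the uncertainty of Idi1. Cyp51 overlaps Akap9, Lss overlaps 4930483K19Rik and Hmgcs1 overlaps Gm48342, and without a stated strand setting their reads cannot be told apart from those of the neighbour.

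Among the later enzymes, Sqle ranged from 31.5 to 54.5 FPKM in liver (median 40.3), from 24.8 to 48.1 in ovary (median 35.4) and from 2.65 to 27.1 in duodenum (median 19.7), and it was at or below 1.05 in skeletal muscle and 0.87 in heart. Lss was the least abundant of these late enzymes, with 7.24 to 16.5 FPKM in liver (median 10.7), 7.39 to 16.8 in ovary (median 12.9) and 1.15 to 8.40 in duodenum (median 5.58). Cyp51 was at 40.3 to 92.0 FPKM in liver (median 65.4), 20.8 to 55.7 in ovary (median 35.9) and 8.26 to 29.9 in duodenum (median 26.3). The kidney stood above the liver for Cyp51 alone, with 65.3 to 138.5 FPKM (median 94.1), though its libraries overlapped those of liver.

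Insig1 ranged from 83.7 to 313.1 FPKM in WAT (median 143.1) and from 97.3 to 207.1 in liver (median 104.2), and vein and BAT followed at means of 112 and 95.5. It ranged from 31.1 to 61.8 in duodenum (median 41.5) and from 29.5 to 49.7 in ovary (median 39.9). Averaged over libraries, Insig1 took 44.6% of the summed FPKM of the 8 genes in WAT, 18% in liver and 8.99% in ovary.

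**Figure D1:**
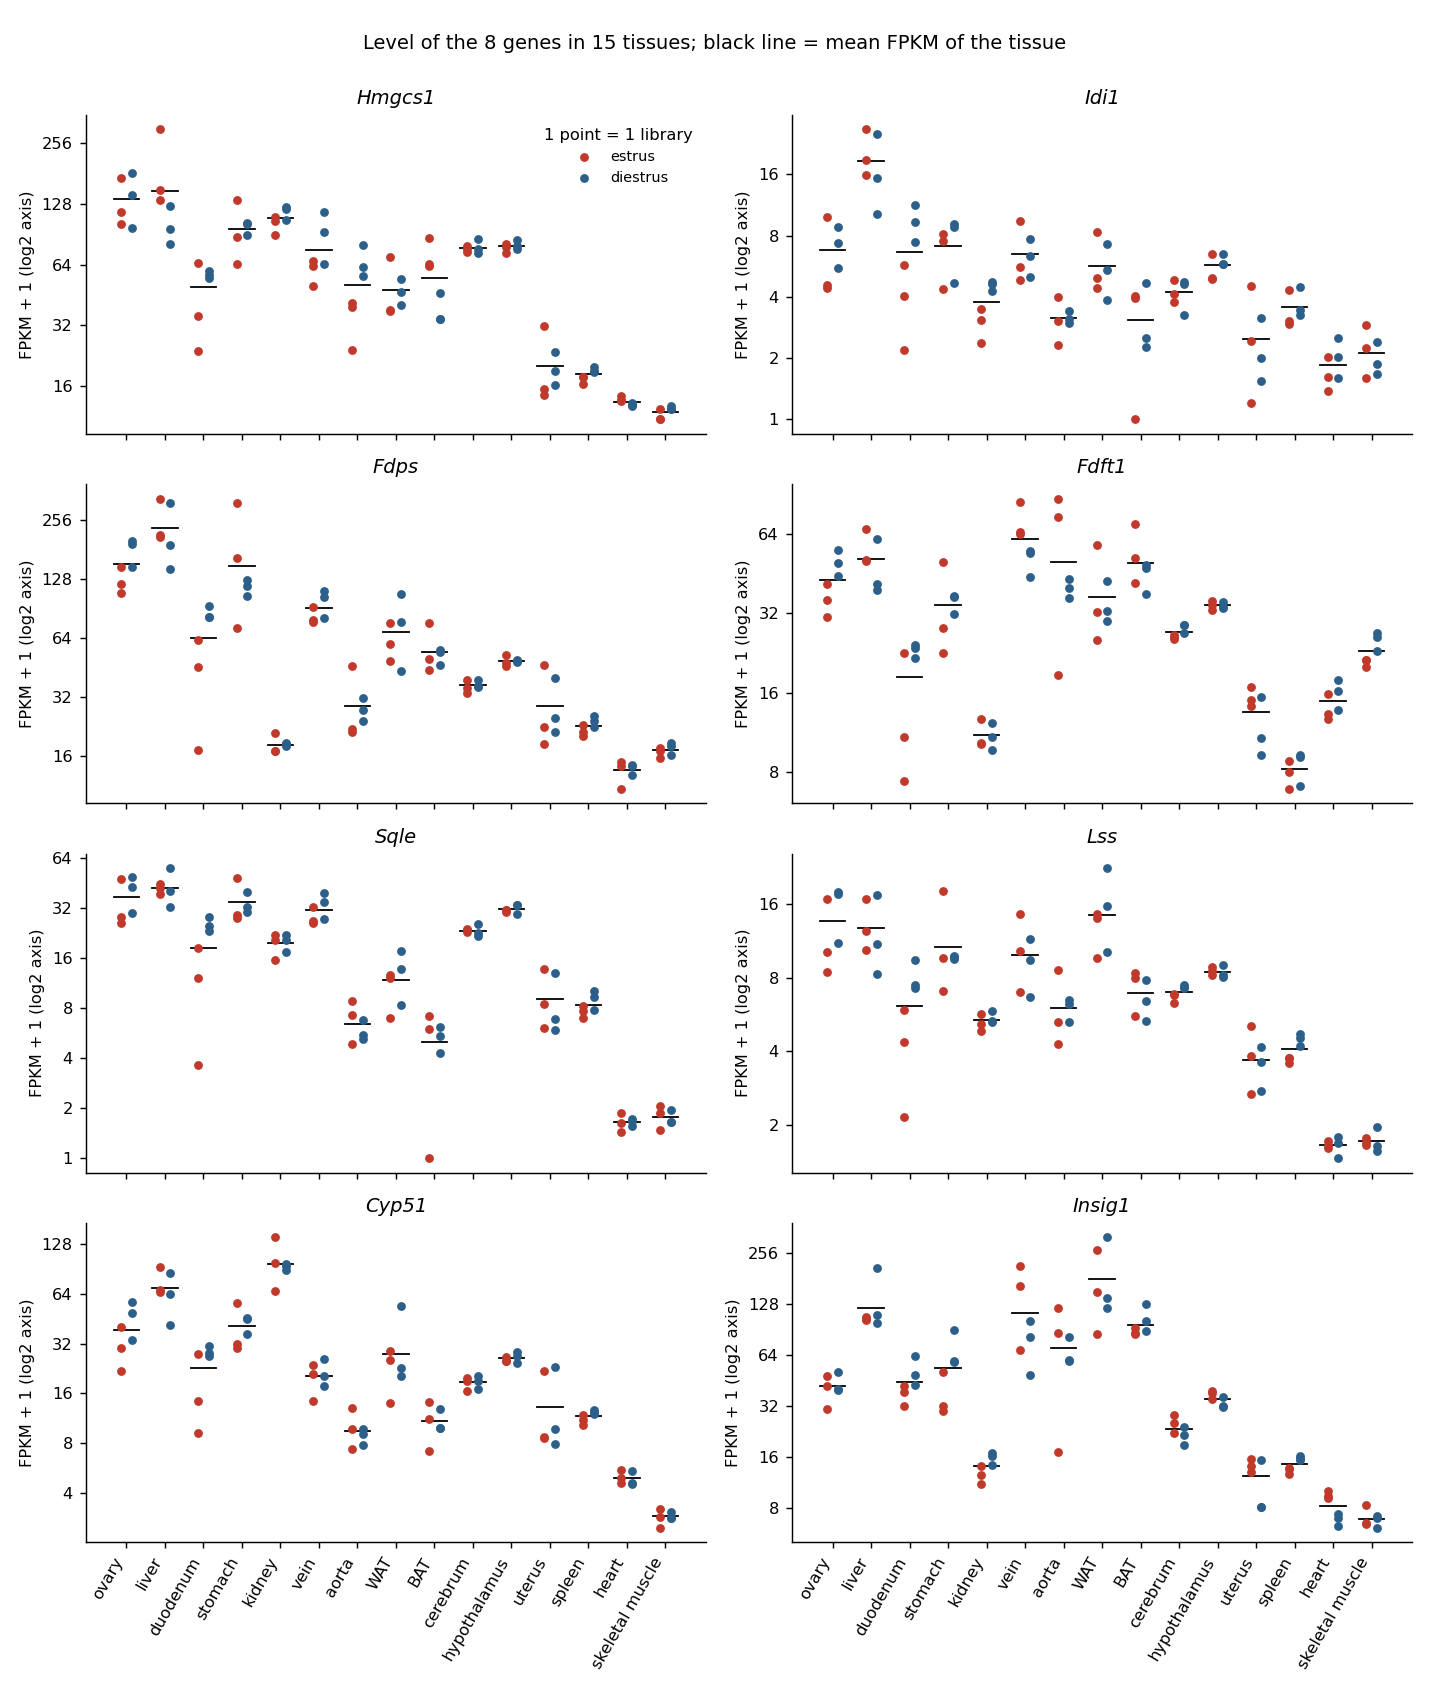
FPKM + 1 of the 8 genes on a log2 axis in 15 tissues, with 1 point for each library (red estrus, blue diestrus) and a black line at the tissue mean. Liver and ovary lie near the top for most genes and heart and skeletal muscle near the bottom, Cyp51 is highest in kidney, and Insig1 and Lss are highest in WAT. The points at 1 in BAT are Idi1 and Sqle in the library of about 76000 reads.

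Of the 112 pairs of tissues next to each other in these 8 orders, 18 differed beyond the spread of their libraries (two-sided exact permutation test of 6 against 6, adjusted p at most 0.05 over 112 pairs, smallest possible p 0.00216), and 94 did not pass. For Hmgcs1, WAT stood above uterus and spleen above heart. For Fdps, Fdft1, Lss and Insig1 the hypothalamus stood above the cerebrum, with adjusted p = 0.0162 in each. The first pair of the order, the leading tissue and its runner-up, differed for Idi1 alone.

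Tested against the mean of the other 14 tissues in one limma fit of all 90 libraries (called by the size of the log2 difference, 1 or more, and an adjusted p no higher than 0.05), all 8 genes were higher in liver, where 8.12% of the 15226 genes tested were called higher. The difference was 2.44 (SE 0.17) for Fdps, 2.18 (SE 0.20) for Idi1, 2.00 (SE 0.17) for Cyp51, 1.90 (SE 0.20) for Sqle, 1.89 (SE 0.19) for Insig1, 1.55 (SE 0.13) for Hmgcs1, 1.08 (SE 0.15) for Lss and 1.01 (SE 0.15) for Fdft1. The median of the 8 was 1.89, while the median of all genes tested was -0.78 in liver. Of the 15 other enzymes of the route 10 were called higher and 2 lower.

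In ovary 5 of the 8 were called higher, with 20.8% of all genes. They were Fdps at 1.81 (SE 0.17), Sqle at 1.67 (SE 0.20), Hmgcs1 at 1.52 (SE 0.13), Lss at 1.18 (SE 0.15) and Cyp51 at 1.07 (SE 0.17), and the median of all genes was 0.40. With every library scaled to a common median ratio, which moved the median of all genes to -0.08 in ovary and -0.25 in liver, Fdps at 1.23 and Sqle at 1.13 were the ones still called in ovary, Insig1 changed sign to -0.28, and all 8 were still called in liver at 1.81 to 3.26. Without the 5 libraries that stand apart, 7 were called in liver and 4 in ovary, with Fdft1 lost in liver and Cyp51 in ovary. Without the 12 libraries of the wider rule 6 were called in liver, with Lss lost as well. The same 6 were left in liver when replicate 1 or replicate 3 was left out of every group. The share of all genes called after scaling or in these smaller sets was not counted. In duodenum 0 of the 8 were called higher (14.2% of all genes) or lower (17.2%), and their differences ran from -0.69 for Fdft1 to 0.47 for Idi1.

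Elsewhere the 8 genes did not move as one group between tissues. In heart 7 were called lower (15.2% of all genes), Fdft1 being the exception, and Sqle was lowest at -3.11 (SE 0.20). In skeletal muscle the same 7 were called lower (35.5% of all genes), with Cyp51 at -2.86 (SE 0.17). In kidney Cyp51 was called higher at 2.53 (SE 0.17) and Hmgcs1 at 1.23 (SE 0.13), with 12.5% of all genes, while Fdps at -1.45 (SE 0.17), Insig1 at -1.38 (SE 0.19) and Fdft1 at -1.35 (SE 0.15) were called lower, with 9.9% of all genes. In BAT Insig1 was called higher at 1.58 (SE 0.19; 8.65% of all genes) and Sqle lower at -1.63 (SE 0.20; 20.9%). In all, 55 of the 120 gene and tissue pairs were called. By tissue, 6.45% (skeletal muscle) to 22.1% (spleen) of all genes were called higher and 3.17% (vein) to 36% (liver) lower.

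The study asked how the estrous cycle changes each tissue. With limma within each tissue, on log2(FPKM + 1) and with genes under a mean of 1 FPKM left out, 115 of the 120 gene and tissue pairs could be tested, and none of them passed the limits (a log2 fold change of 1 or more in size together with an adjusted p no higher than 0.05). At an unadjusted p under 0.05 there were 19, a limit that 7.84% of all 185469 gene and tissue tests passed. In 22 of the 120 pairs the 3 estrus and 3 diestrus libraries did not overlap, with estrus above in 5 and below in 17, where over all genes and tissues estrus lay above in 5.66% and below in 9.31%. An exact permutation test of 3 against 3 libraries cannot give a p below 0.1. In whole tissue, fewer cells of a type and less RNA per cell cannot be told apart.

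**Figure D2:**
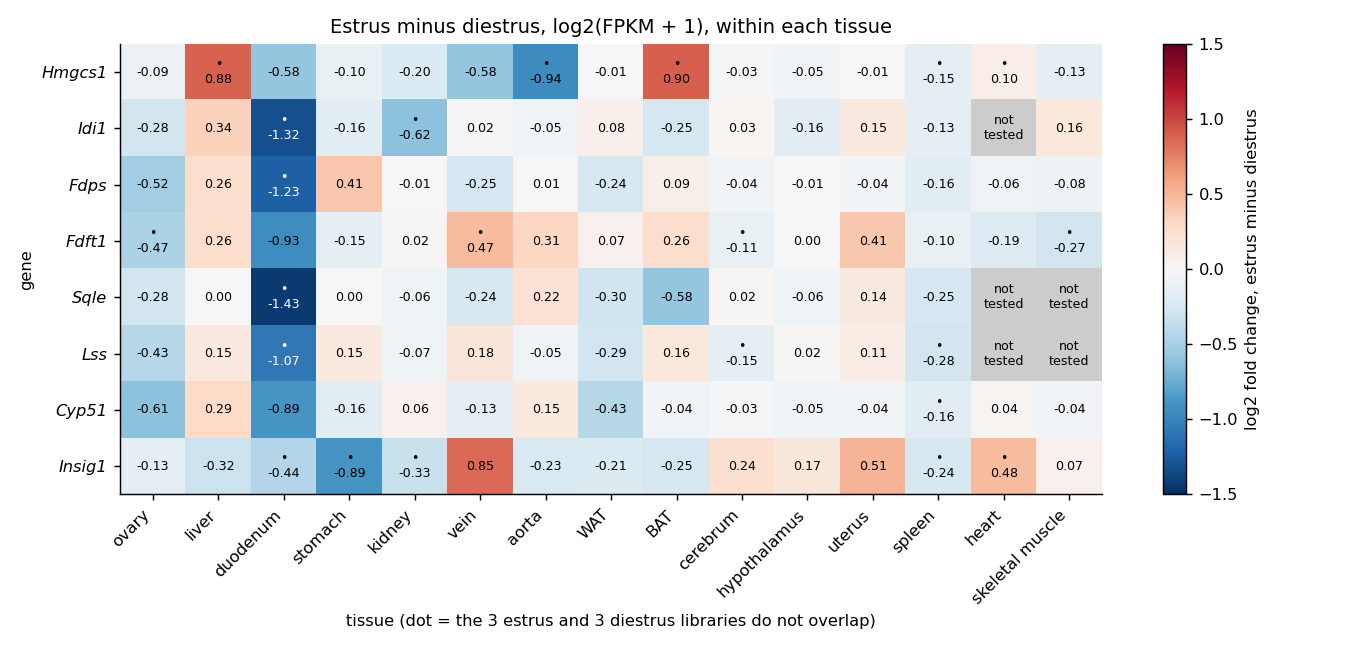
Log2 fold change (log2(FPKM + 1), estrus minus diestrus) of the 8 genes (rows) in 15 tissues (columns), with blue lower and red higher in estrus, a dot where the 3 estrus and 3 diestrus libraries do not overlap, and grey where the gene fell below the minimum mean. The duodenum column is blue in all 8 rows, from -1.43 to -0.44, the liver has Hmgcs1 at 0.88, and the ovary column runs from -0.61 to -0.09.

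In the duodenum all 8 genes were lower in estrus than in diestrus, with a median log2 fold change of -1.0, where the median of all 12410 genes tested was -0.16 and 67.2% of them were below 0. Estrus lay below all diestrus libraries for 5 of the 8 (Idi1, Fdps, Sqle, Lss and Insig1), as it did for 22.1% of all genes. None of the 8 was called, as was no other gene of the tissue, although 1677 genes had an unadjusted p under 0.05.

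For duodenal Hmgcs1 the estrus libraries, replicates 1 to 3 in order, gave 64.5, 23.0 and 34.5 FPKM against 58.4, 53.8 and 56.1 for diestrus (log2 fold change -0.58, SE 0.35, adjusted p = 0.452). Replicate 1 was the highest of all 6 libraries, so the phases overlapped. Idi1 read 3.04, 1.2 and 4.73 in estrus and 10.3, 6.46 and 8.31 in diestrus (-1.32, SE 0.37, adjusted p = 0.368). Every estrus library lay below every diestrus one, and Gm38481, the row that may share its reads, read 25.9, 13.6 and 23.2 against 49.9, 45.7 and 42.0 with the same order of phases.

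Fdps read 61.2, 16.04 and 44.7 in estrus and 92.7, 81.0 and 80.8 in diestrus (-1.23, SE 0.46, adjusted p = 0.368). The phases did not overlap, and the mean of estrus was 0.479 of that of diestrus. Fdft1 read 21.5, 6.37 and 9.85 against 23.2, 22.6 and 20.7 (-0.93, SE 0.39, adjusted p = 0.368). Estrus replicate 1 lay among the diestrus libraries and the other two far below. Sqle read 17.4, 2.65 and 11.1 against 27.1, 22.1 and 23.7 (-1.43, SE 0.56, adjusted p = 0.368), without overlap. Its estrus mean was 10.4 ± 7.38 and its diestrus mean 24.3 ± 2.52 (SD, n = 3), so the SD was larger among the estrus libraries.

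Lss read 4.88, 1.15 and 3.37 in estrus and 8.40, 6.27 and 6.49 in diestrus (-1.07, SE 0.38, adjusted p = 0.368), without overlap. Cyp51 read 26.7, 8.26 and 13.5 against 29.9, 25.9 and 27.2 (-0.89, SE 0.38, adjusted p = 0.37), and here estrus replicate 1 was again among the diestrus libraries. Insig1, the sterol sensor, read 37.6, 31.1 and 41.1 against 47.8, 61.8 and 41.8 (-0.44, SE 0.20, adjusted p = 0.376), where the phases just did not overlap. Estrus replicate 2 was the lowest duodenal library for all 8 genes.

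**Figure D3:**
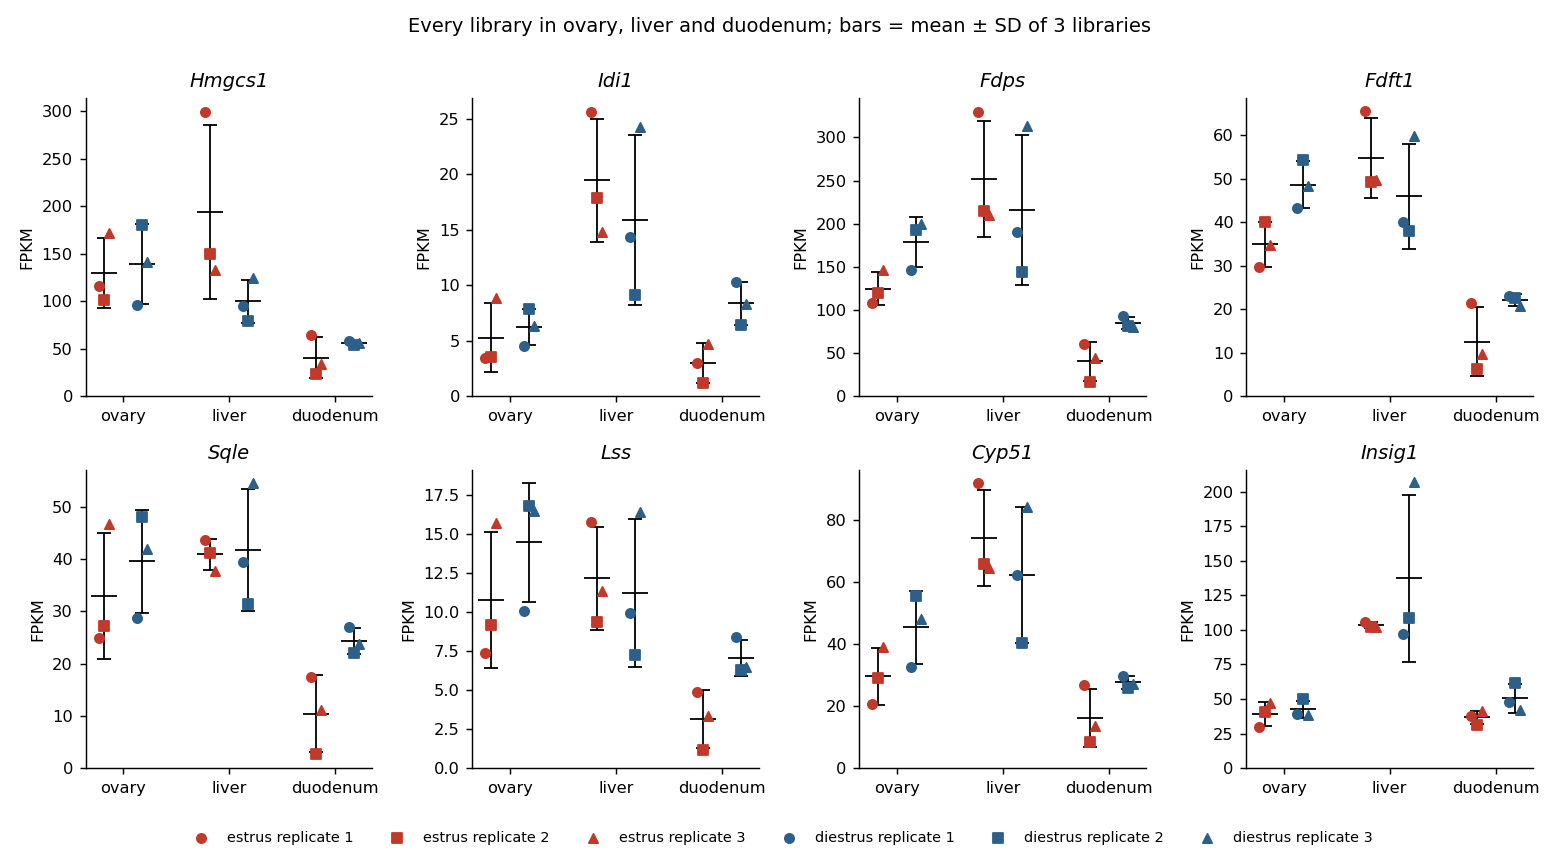
FPKM of each of the 8 genes in ovary, liver and duodenum on axes that start at 0, with 1 symbol for each library (red estrus, blue diestrus, shape by replicate) and a bar at the mean ± SD of 3 libraries. In duodenum the estrus points lie below the diestrus points for Idi1, Fdps, Sqle, Lss and Insig1, in liver estrus replicate 1 and diestrus replicate 3 are the high points, and in ovary most ranges overlap.

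In the single fit of all 90 libraries, in which every group shares one estimate of the spread per gene, 4 of the 8 were called lower in duodenal estrus, as were 1.71% of all genes. They were Fdps (adjusted p = 0.00633), Sqle (adjusted p = 0.00681), Lss (adjusted p = 0.00699) and Idi1 (adjusted p = 0.0157). Without the 5 libraries that stand apart the same fit called 6, with Fdft1 at -1.37 (adjusted p = 6.4e-06) and Cyp51 at -1.30 (adjusted p = 0.00285) added. That leaves out duodenal estrus replicate 1, the highest estrus library of Fdft1 (21.5 FPKM) and of Cyp51 (26.7 FPKM). The share of all duodenal genes called without these libraries was not counted. Leaving out that replicate alone raised the share of genes with estrus below all diestrus libraries from 22.1% to 46.6%. The single fit differs from the fit within the tissue both in its estimate of the spread and in the genes tested, 15226 in place of 12410. Its SE in duodenum was 0.32 for Fdps, 0.38 for Sqle and 0.28 for Lss, against 0.46, 0.56 and 0.38 within the tissue. For Idi1 it was 0.38 against 0.37. The shared spread was thus smaller than that of the duodenum for Fdps, Sqle and Lss. Scaling the libraries to a common median ratio moved the median of all duodenal genes from -0.16 to 0.01, and all 8 remained lower, from -0.25 for Insig1 to -1.27 for Sqle.

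Other values also differed between the duodenal libraries, not all of them by phase. The 6 markers of proliferating crypt cells summed to 72.3, 19.0 and 172 FPKM for estrus against 448, 264 and 288 for diestrus, with 5 of the 6 lower in estrus without overlap and none at 0. Enterocyte markers summed to 4960, 18900 and 17900 in estrus and 8700 to 12200 in diestrus. Replicate 1 of estrus, with its gastric markers, also had a smooth muscle sum of 2530 against 268 to 685 in the other duodenal libraries. Leukocyte markers summed to 534, 149 and 179 in estrus and 104, 152 and 99.6 in diestrus. Of these 7 markers 3 were higher in estrus without overlap, as were 4.51% of all genes. Endothelial markers summed to 15.0, 8.89 and 12.8 against 16.5, 18.5 and 13.7, with 3 of 4 lower without overlap, and none of either list was at 0. The clock gene Dbp read 0.52 in diestrus replicate 1 against 11.2 to 47.7 in the others. The part of these in the result was not tested. Without estrus replicate 1, estrus lay below all diestrus libraries for all 8 genes, as it then did for 46.6% of all genes, and the fit within the tissue gave log2 fold changes from -0.47 for Insig1 to -1.92 for Sqle with adjusted p from 0.103 to 0.167. Without estrus replicate 2 they ran from -0.24 for Hmgcs1 to -0.94 for Idi1.

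Of the 15 other enzymes of the route, 14 had a negative log2 fold change in duodenum and 1 a positive one, 11 of them with estrus below all diestrus libraries, with a median of -0.46, and 0 were called. Ebp, a sterol isomerase, and Msmo1, a sterol demethylase, were among the 3 most abundant, at -0.26 (SE 0.15) and -0.04 (SE 0.15). Msmo1 read 51.5, 45.8 and 59.1 in estrus and 51.9, 52.8 and 55.8 in diestrus. Those with the largest differences, named after their values were seen, were Mvd, which forms isopentenyl diphosphate, at -1.2 (SE 0.39), Dhcr7, which makes cholesterol from 7-dehydrocholesterol, at -0.91 (SE 0.21), and Mvk, the mevalonate kinase, at -0.90 (SE 0.20), each with an adjusted p = 0.368.

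Of the 13 genes of cholesterol uptake, storage and efflux 6 were higher and 7 lower in duodenal estrus, with a median of -0.17. Without overlap, 1 lay above and 3 below, as did 4.51% and 22.1% of all genes. The most abundant were Npc1l1, the intestinal cholesterol importer, at 33.3, 136.0 and 179.5 against 120.1, 96.3 and 157.1 FPKM, and Abcg5, a sterol exporter, at 56.9, 121.0 and 94.8 against 78.3, 68.6 and 88.8, both with overlapping phases. Abca1, the cholesterol exporter that liver X receptors switch on, was picked after its values were seen and read 3.45, 3.82 and 4.48 in estrus and 0.85, 0.91 and 1.43 in diestrus (1.26, SE 0.21, adjusted p = 0.368).

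Among the 10 genes of sterol sensing, 9 were lower and 1 higher in duodenal estrus, with 2 below without overlap, 0 called and a median of -0.29. Srebf2, which encodes SREBP-2, read 33.1, 13.04 and 24.5 in estrus and 37.2, 33.8 and 33.1 in diestrus (-0.63, SE 0.32, adjusted p = 0.4), so estrus replicate 1 just overlapped diestrus. Of the 8 fatty acid synthesis genes 3 were above 0 and 5 below (median -0.50), of 6 fasting genes 5 above and 1 below (median 0.68), of 12 clock genes 7 above and 5 below (median 0.70), and both feeding genes tested and the 1 bile acid gene tested, Cyp27a1 at 1.09, were below and above 0 in that order, with 0 called in any of these lists.

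In the liver 7 of the 8 log2 fold changes were above 0, Sqle by less than 0.01, and that of Insig1 was below, with a median log2 fold change of 0.26, where the median of all 10666 genes tested was -0.01 and 45.1% of them were above 0. Estrus lay above all diestrus libraries for Hmgcs1 alone, as it did for 4.48% of all genes. None of the 8 was called and no gene of the tissue was, while 597 genes had an unadjusted p under 0.05.

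Hepatic Hmgcs1 read 299.8, 150.2 and 133.5 FPKM in the estrus libraries against 95.2, 79.7 and 124.6 for diestrus (log2 fold change 0.88, SE 0.32, unadjusted p = 0.0283, adjusted p = 0.811). Estrus replicate 1 was far above the next library, and without it the log2 fold change was 0.52 (adjusted p = 0.827). Idi1 read 25.6, 17.9 and 14.8 against 14.3, 9.16 and 24.2 (0.34, SE 0.34). Fdps read 329.7, 214.7 and 210.6 against 190.3, 144.0 and 313.0 (0.26, SE 0.30). In both, estrus replicate 1 and diestrus replicate 3 were the high libraries and the phases overlapped.

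Fdft1 read 65.5, 49.3 and 49.6 in estrus and 40.1, 38.0 and 59.9 in diestrus (0.26, SE 0.20). Sqle read 43.8, 41.3 and 37.7 against 39.4, 31.5 and 54.5 (0.00, SE 0.19, 95% confidence interval -0.45 to 0.45). Lss read 15.8, 9.34 and 11.4 against 9.96, 7.24 and 16.5 (0.15, SE 0.30). The diestrus replicate 3 value of Sqle and of Lss exceeded all others. Cyp51 read 92.0, 66.0 and 64.7 against 62.2, 40.3 and 84.2 (0.29, SE 0.27). Insig1 read 106.0, 102.2 and 102.5 in estrus and 97.3, 108.4 and 207.1 in diestrus (-0.32, SE 0.27), so 1 diestrus library carried the whole difference, and without it the log2 fold change was 0.01. For these 7 the adjusted p ran from 0.834 to 0.999.

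Without liver diestrus replicate 3, 5 of the 8 genes had estrus above all diestrus libraries, as then did 7.64% of all genes, and without estrus replicate 1, the library with Dbp at 0.98, 3 of the 8 log2 fold changes were below 0 in place of 1, as were 50.7% of all genes. A pair of other clock genes, picked after their values were seen, also set that library apart, with Arntl, a core clock activator, at 7.55 against 0.34 to 1.85 and Ciart, a clock repressor, at 0.31 against 1.08 to 38.3. Summed hepatocyte markers were 75300 to 94000 in estrus and 72800 to 90000 in diestrus. The part of the clock values in the result was not tested.

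Around the 8 genes in liver, 12 of the 15 other enzymes were higher in estrus and 3 lower, none without overlap, with a median of 0.15. Among the 3 most abundant were Sc5d, a sterol desaturase, at 313.0, 232.6 and 217.3 against 227.3, 208.0 and 246.1 and Msmo1 at 215.2, 153.6 and 154.3 against 126.5, 103.7 and 166.8. Of the 10 sterol sensing genes 4 were higher and 6 lower. Without overlap, 3 lay above and 1 below, as did 4.48% and 6.84% of all genes. The 3 above were picked after their values were seen. Insig2, the second Insig protein, read 68.9, 34.7 and 44.6 in estrus and 18.3, 31.5 and 17.1 in diestrus (1.11, SE 0.31, adjusted p = 0.811). Srebf2 read 16.9, 16.5 and 15.5 against 12.4, 13.4 and 14.7 (0.26, SE 0.09), and Scap, the escort of SREBP, read 46.2, 36.6 and 39.5 against 35.5, 30.6 and 32.5 (0.30, SE 0.11), both with an adjusted p = 0.811. The 4 genes of bile acid synthesis split into 2 higher and 2 lower. Cyp8b1, which sets the share of cholic acid, read 136.8, 118.4 and 45.9 against 20.6, 47.3 and 27.9 (1.56, SE 0.46, adjusted p = 0.811), and Cyp7a1, the rate-limiting enzyme of bile acid synthesis, read 55.6, 41.0 and 55.3 against 55.8, 54.1 and 115.6 (-0.48, SE 0.30, adjusted p = 0.813). Of the 12 uptake genes tested 7 were above 0 and 5 below (median 0.01), of 8 fatty acid synthesis genes 1 and 7 (median -0.18), of 7 fasting genes 6 and 1 (median 0.27), of 11 clock genes 4 and 7 (median -0.77), and all 4 feeding genes were below 0 (median -0.44), with 0 called.

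In the ovary all 8 genes were lower in estrus, with a median log2 fold change of -0.35, where the median of all 13587 genes tested was 0.01 and 46.5% of them were below 0. Only Fdft1 lay below all diestrus libraries, as did 5.58% of all genes. None of the 8 was called and no gene of the tissue was, while 810 had an unadjusted p under 0.05.

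Ovarian Hmgcs1 read 116.5, 101.2 and 171.5 FPKM against 96.0, 180.9 and 141.1 for diestrus (-0.09, SE 0.28). Idi1 read 3.44, 3.57 and 8.86 against 4.57, 7.84 and 6.32 (-0.28, SE 0.34). For both, estrus replicate 3 was high and diestrus replicate 1 low, and the phases overlapped. Fdps read 108.2, 119.9 and 146.1 against 146.1, 192.3 and 199.5 (-0.52, SE 0.17, adjusted p = 0.816), with its highest estrus library level with the lowest diestrus one. Fdft1 read 29.8, 40.1 and 34.8 against 43.4, 54.4 and 48.4 (-0.47, SE 0.14, adjusted p = 0.782), without overlap.

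Sqle read 24.8, 27.2 and 46.7 in estrus and 28.7, 48.1 and 42.0 in diestrus (-0.28, SE 0.28). Lss read 7.39, 9.20 and 15.7 against 10.1, 16.8 and 16.5 (-0.43, SE 0.29). Cyp51 read 20.8, 29.0 and 39.1 against 32.7, 55.7 and 48.1 (-0.61, SE 0.27, adjusted p = 0.838). Insig1 read 29.5, 40.7 and 46.8 against 39.1, 49.7 and 38.5 (-0.13, SE 0.19). Estrus replicate 3 was the highest estrus library for all of these but Fdft1, and it is the library with the oviduct markers. Without it, 6 of the 8 genes had estrus below all diestrus libraries, as then did 14.6% of all genes.

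Theca markers in ovary summed to 23.9, 134 and 106 FPKM for estrus against 276, 253 and 131 for diestrus, with 2 of 4 below without overlap. Granulosa markers summed to 2140, 2780 and 1620 against 3050, 3180 and 2450, and luteal markers to 7000, 5600 and 6390 against 5760, 8450 and 8760. Their part in the result was not tested. Of the 7 steroid synthesis genes 6 were lower and 1 higher in estrus, none without overlap, with a median of -0.45. Hsd3b1, which makes progesterone, read 4235, 3246 and 3294 against 2796, 4745 and 4458, and Cyp11a1, which cleaves the side chain of cholesterol, read 2239, 1881 and 2553 against 2417, 3124 and 3647. Of the 15 other cholesterol enzymes 12 were lower and 3 higher, with 3 below without overlap (Tm7sf2, Nsdhl and Sc5d, named after their values were seen) and a median of -0.24. Hsd17b7, one of the 3 most abundant, had the widest spread, at 21.7, 15.8 and 91.7 in estrus and 21.4, 166.0 and 164.9 in diestrus (-1.38, SE 0.93, adjusted p = 0.85). Of the 10 sterol sensing genes 6 were above 0 and 4 below (median 0.00), of 9 uptake genes 4 and 5 (median -0.06), of 8 fatty acid synthesis genes 5 and 3 (median 0.03), of 4 fasting genes 1 and 3 (median -0.25) and of 12 clock genes 10 and 2 (median 0.27), with 0 called.

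**Figure D4:**
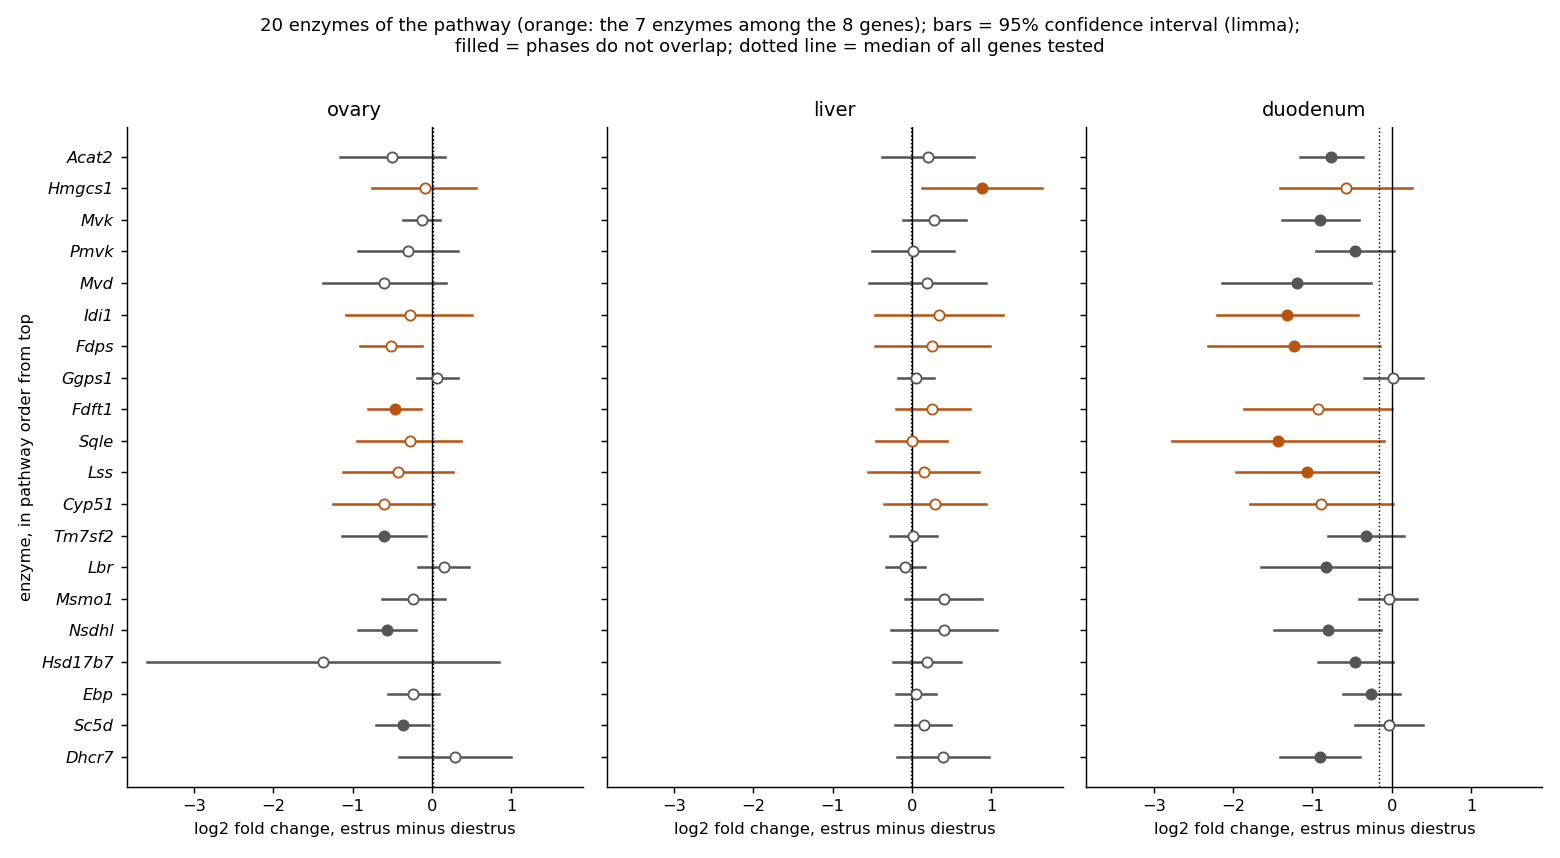
Log2 fold change (estrus minus diestrus, x axis, the same in the 3 panels) of 20 enzymes in pathway order from the top (y axis) in ovary, liver and duodenum, with 95% confidence intervals from limma, orange for the 7 enzymes among the 8 genes, filled points where the phases do not overlap and a dotted line at the median of all genes tested. In duodenum the points lie left of 0 for all enzymes but Ggps1, in ovary most lie left of 0 and near it, and in liver most lie right of 0 with intervals that cross it except for Hmgcs1.

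Whether the phase difference itself varied between tissues was tested in the fit of all 90 libraries. All groups share its spread, and the SE of the Hmgcs1 phase difference was 0.26 in liver and in duodenum. Within the tissue that SE was 0.32 in liver, 0.35 in duodenum and 0.05 in hypothalamus. The shared spread thus understates that of Hmgcs1 in liver and duodenum. An F-test over the 15 tissues passed for Hmgcs1 (F = 3.35, adjusted p = 0.0219) and for none of the other 7 (adjusted p from 0.374 to 0.821), with 3.88% of 15226 genes past an adjusted p of 0.05. Among ovary, liver and duodenum, Hmgcs1 was the one gene called, for liver minus duodenum, with 0.88 in liver, -0.58 in duodenum and a difference of 1.46 (SE 0.37, 95% confidence interval 0.73 to 2.2, adjusted p = 0.0251), where 1.07% of all genes were called. For the other 6 enzymes the same difference ran from 1.18 for Cyp51 to 1.65 for Idi1 with adjusted p from 0.0686 to 0.189, and for Insig1 it was 0.12 (95% confidence interval -0.90 to 1.13). No gene of the 8 was called for ovary minus liver (0.0657% of all genes) or ovary minus duodenum (1.24%). For ovary minus liver the differences ran from -0.97 for Hmgcs1 (interval -1.71 to -0.24) to 0.19 for Insig1, and for ovary minus duodenum from 0.27 for Cyp51 to 1.15 for Sqle (interval 0.08 to 2.22). The Hmgcs1 difference between liver and duodenum remained past the limits without the 5 libraries that stand apart (1.49, adjusted p = 0.00371). When replicate 1, 2 or 3 was left out of every group it was 1.44, 1.14 and 1.80 and no longer passed. The F-test of Hmgcs1 also changed when a replicate number was left out of every group, which makes each group smaller as well. It did not pass without replicate 1 (adjusted p = 0.337) or without replicate 3 (adjusted p = 0.42), and it passed without replicate 2 (adjusted p = 0.00832). Without replicate 1 Fdft1 was the one gene of the 8 that passed, without replicate 3 none did, and without the 5 libraries Hmgcs1, Fdft1 and Sqle did. The share of all genes past the F-test in these smaller sets was not counted, so these numbers have no background beside them.

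In the 12 other tissues the log2 fold changes of the 8 genes were of mixed sign except in spleen, where all 8 were below 0, as were 52.4% of all genes, with a median of -0.16. Estrus and diestrus libraries did not overlap in 15 gene and tissue pairs, 4 above and 11 below. In BAT Hmgcs1 was above in estrus (1 of 8, and 12% of all genes), at 85.9, 63.7 and 61.8 against 33.3, 45.4 and 33.3 FPKM (0.90, SE 0.19, adjusted p = 0.199), and without estrus replicate 3, the library of about 76000 reads, it was 0.98 (adjusted p = 0.0511). In aorta Hmgcs1 was below (1 of 8, and 9.54% of all genes), at 23.3, 40.2 and 38.7 against 79.1, 55.2 and 61.1 (-0.94, SE 0.27, adjusted p = 0.933), and without estrus replicate 1 it was -0.69.

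Insig1 was below in estrus in stomach (1 of 8, and 12% of all genes), at 28.8, 30.9 and 49.7 against 56.7, 89.2 and 58.2 (-0.89, SE 0.27, adjusted p = 0.671). In heart it was above, together with Hmgcs1 (2 of 8, and 7.91% of all genes), at 8.15, 8.49 and 9.17 against 6.45, 5.29 and 6.01 (0.48, SE 0.09, adjusted p = 0.667). In spleen 4 of the 8 were below (Hmgcs1, Lss, Cyp51 and Insig1, with 5.7% of all genes), with log2 fold changes from -0.15 to -0.28. Without estrus replicate 2, the library with the pancreatic markers, these were 4 of the 8 and 7.86% of all genes, and without diestrus replicate 3 they were 7 of the 8 and 10% of all genes. In kidney Idi1 and Insig1 were below (2 of 8, and 3.73% of all genes) at -0.62 (SE 0.17) and -0.33 (SE 0.12). In cerebrum Fdft1 and Lss were below (2 of 8, and 2.88%) at -0.11 and -0.15. Fdft1 was above in vein (1 of 8, and 5.28%) at 0.47 (SE 0.15) and below in skeletal muscle (1 of 8, and 21.9%) at -0.27 (SE 0.08). None of these passed the adjusted p in limma.

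The deviations of the 8 genes were compared between libraries. Each library's log2(FPKM + 1) was set against the mean of its tissue, and the deviations were compared over 89 libraries, without BAT estrus replicate 3. The deviations hold the difference between phases as well as that between mice. All values are correlations over libraries that share their depth and normalization, given as a description. The 28 gene pairs had r from 0.17 (Hmgcs1 and Insig1) to 0.83 (Sqle and Cyp51), with a median of 0.58. Against the mean of the other 7, Lss had r = 0.86, Sqle and Cyp51 0.82, Fdps 0.81, Fdft1 0.70, Idi1 0.69, Hmgcs1 0.56 and Insig1 0.49. Lss, Sqle, Cyp51 and Fdps thus followed the group most closely, and Hmgcs1 and Insig1 least.

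Within single tissues the median r of the 28 pairs was 0.92 in duodenum, 0.86 in liver and 0.81 in ovary over 6 libraries each. Duodenum, liver and ovary each hold a library that stands apart, which was kept here. Values without these libraries, or for pairs of other genes, were not computed. It was 0.71 in spleen and 0.68 in stomach, and lowest in kidney (0.13) and heart (0.07). In duodenum and ovary all 28 pairs were positive, in liver 27, and in heart 17.

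**Figure D5:**
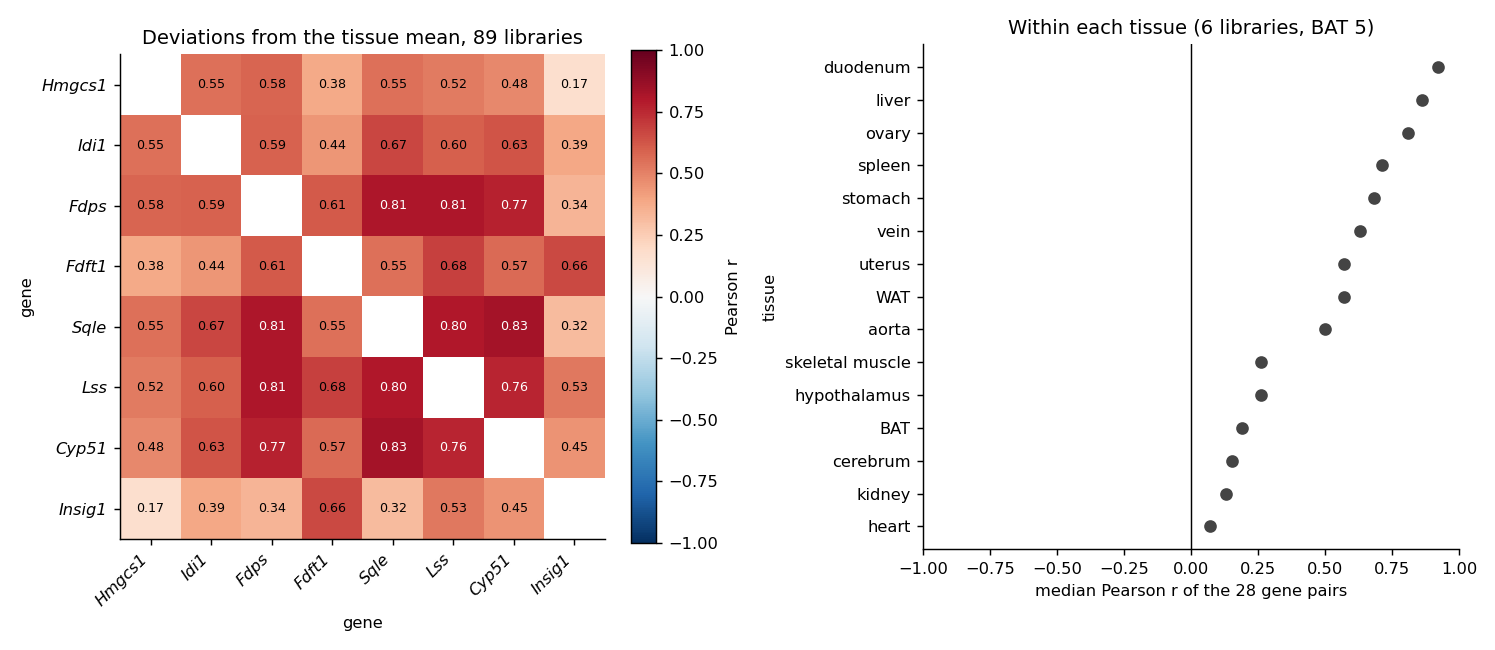
Left, Pearson r between the deviations of each pair of the 8 genes from their tissue means over 89 libraries (red positive). Right, the median r of the 28 pairs within each tissue, over 6 libraries (5 in BAT). Every pair on the left is positive, from 0.17 to 0.83, and on the right duodenum, liver and ovary lie at the top with 0.92, 0.86 and 0.81.

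Of the 11082 genes that reached a mean of 5 FPKM, the 10 whose deviations were most like the mean deviation of the 8 were Gm38481 (r = 0.85), Mvd (0.84), Nsdhl (0.77), Ola1 (0.71), Acat2 (0.70), Mrpl1 (0.69), Rpp14 (0.68), Scd2 (0.68), Hsd17b12 (0.67) and Mrps22 (0.67), over 89 libraries, while the median of all genes was 0.06. 3 of them, Mvd, Nsdhl and Acat2, are enzymes of the route, and Gm38481 is the row that may share reads with Idi1. Ggps1, which leads away to geranylgeranyl diphosphate, had r = -0.01. Srebf2 had r = 0.47, Srebf1 r = 0.39 and Insig2 r = 0.02.

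In the duodenum all 10 of these genes were lower in estrus with no overlap between phases, Mvd at 11.7, 3.11 and 6.95 FPKM against 18.1, 15.5 and 14.9 and Scd2, a fatty acid desaturase, at 20.8, 2.79 and 8.34 against 28.2, 33.7 and 21 (-1.62, SE 0.60, adjusted p = 0.368). They were chosen for following the 8 genes over libraries that include these, so their direction here is no separate observation.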

How the data were processed

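RNA of 90 libraries (15 tissues, 2 phases, 3 libraries a group) was sequenced on the BGISEQ-500. Per the labels and the methods, the authors cleaned reads with SOAPnuke, aligned them with Bowtie2 2.2.5 to GRCm38.p5 and quantified them with RSEM 1.2.8, and the authors deposited FPKM for 20414 genes. The strand setting is not given in the sources used here. FPKM is normalized to library size and carries no counts, so no count model was used. Depth was estimated from the steps between low values. Phases were compared with limma 3.58.1 (R 4.3.3) within each tissue on log2(FPKM + 1), with the intensity trend, leaving out genes under a mean of 1 FPKM, with Benjamini-Hochberg adjustment over all genes of the tissue. Fold changes on this scale understate those of low genes. Tissues were compared, and the difference of phases between tissues tested, in one fit of 90 libraries with 30 group means. Neighbouring tissues were compared by exact permutation. Other genes of the pathway came from fixed lists. Named were the 8 genes, list members past the limits or else the 3 with the highest mean FPKM in the tissue, the 10 genes of greatest likeness and marker genes. The members and lists were chosen with earlier results of these data known. Promoters came from RefSeq (GRCm38.p6), and similar transcripts from blastn 2.17.0 with at least 95% identity over at least 300 bases. Some list members are counted with their lists but not reported singly here. Scripts were tested on simulated data. Alternatives were another pseudocount, filters, scaling, shared fits, a replicate block and left-out libraries. The same-numbered libraries of both phases deviated together in 0 of 15 tissues (every correlation over 0.1), so the numbers were not taken to pair the libraries. Per the methods the tissues of a phase share mice. Same-numbered libraries of different tissues had a mean r of 0.024 to 0.066, and libraries of other numbers -0.036 to -0.011. The deviations were taken from the mean of each group, which ties the second range to the first, so it is no separate baseline.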

Additional observations from a re-analysis of the deposited data

Results flagged for a closer look

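The phase difference of Hmgcs1 varied over the 15 tissues, with an adjusted p = 0.0219 in the limma F-test of the fit of all 90 libraries, where it was the one gene of the 8 past that limit. It did not pass when replicate 1 (adjusted p = 0.337) or replicate 3 (adjusted p = 0.42) was left out of every group, and without replicate 1 Fdft1 passed in its place. Its log2 fold change in liver (0.88) minus that in duodenum (-0.58) was 1.46, which passed the test of the difference itself (adjusted p = 0.0251), and did not pass with any one replicate number left out (1.14 to 1.80, adjusted p from 0.0521 to 0.318). Groups of 3 libraries were too small for a test of single outlying libraries.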

How the results depend on the processing

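Within tissues 0 of the 8 genes were called in any tissue, and one fit of 90 or of 89 libraries gave 4 and 4 calls and one fit without the 5 libraries that stand apart, chosen after seeing the data, gave 7 (6 in duodenum and Fdft1 in aorta), as did one fit without the 12 libraries of the wider rule, also chosen after seeing the data. Over all genes and tissues 2 calls became 1 with no filter, 1 with a minimum mean of 5 FPKM, 2613 and 1845 in one fit of 90 and of 89 libraries and 2207 and 1987 without the 5 and the 12 libraries, and 1 to 99 when a replicate was left out. With the replicate number as a block these calls were 5, those among the 8 genes 0, the calls between tissues 55 and the Hmgcs1 difference between liver and duodenum 1.46. The genes with estrus below all diestrus libraries numbered 1 to 6 in ovary (6 without estrus replicate 3, 4 without diestrus replicate 1), 0 to 1 in liver 5 to 8 in duodenum and 4 to 7 in spleen when a library was left out. In liver those above numbered 1 to 5 and those with a lower mean 0 to 3. The F-test over tissues passed for 3 genes (Hmgcs1, Fdft1 and Sqle) without the 5 and without the 12 libraries and for 0 to 1 when a replicate number was left out (Fdft1 without replicate 1, Hmgcs1 without replicate 2, none without replicate 3), where the Hmgcs1 difference was 1.14 to 1.80 and not past the limits. The share of all genes past the F-test in these sets was not counted. Median-ratio scaling left 2 of 5 calls in ovary, and leaving out replicate 1 or 3 left 6 of 8 in liver. The share of all genes called there was not counted either. Neighbouring tissues had 18 differences and 0 to 0 without a replicate number, since 4 against 4 libraries cannot pass the adjustment. Without the 5 and without the 12 libraries Sqle and Lss in liver turned to -0.05 and -0.04. With a library left out, Hmgcs1 in ovary ran from -0.33 to 0.12, Insig1 in ovary from -0.27 to 0.05 and in liver from -0.53 to 0.01, Sqle in liver from -0.18 to 0.21 and Lss in liver from -0.10 to 0.44. The cause of these changes was not tested. With FPKM alone, depth limits the low values of Idi1, Lss and Sqle in heart, skeletal muscle and BAT estrus replicate 3.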
